A study of Mus musculus with 18 samples.

Results

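Chromatin accessibility in the livers of 2 refed JMJD1C-LKO mice was compared with that of 2 refed WT mice by ATAC-seq. The samples were taken by the genotype and feeding state in their labels and make up 4 of the 18 samples of the series. They hold 10421 of the 55645 summits deposited for all its ATAC-seq and ChIP-seq samples. All mice were C57BL/6J, had been kept on chow for 6 to 8 weeks, and were fasted overnight and then given a high carbohydrate diet, for 6 h according to the labels. JMJD1C-LKO mice carried floxed Jmjd1c alleles from which the selection cassette had been removed with ROSA-FLPe mice, and a Cre driven by the albumin promoter, which is active in hepatocytes, so that other cells of the liver keep the gene. The WT mice were littermates, and their Cre, FLPe and floxed alleles are not given in the sources used here, nor is an age in the labels. Nuclei of each liver were processed separately, so the 2 samples of a group are 2 mice.

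In ATAC-seq a transposase cuts and tags DNA that nucleosomes leave free, and the places with most cuts are mainly promoters and enhancers. JMJD1C is a Jumonji demethylase that removes methyl groups from lysine 9 of histone H3, a mark of closed chromatin, and the study places it at promoters of lipid synthesis genes through USF-1, a factor that binds the E-box CACGTG. The comparison addresses whether promoters of the refed liver are less open without JMJD1C.

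The deposited values are peak summits, single positions called in each liver and scored by the −log10 of their q-value. Neither read counts nor peak widths are given, so the depth of a liver is unknown and a place with no summit is not shown to be closed. The lists held 5027 summits in WT replicate 1, 3119 in WT replicate 2, 1450 in JMJD1C-LKO replicate 1 and 825 in JMJD1C-LKO replicate 2. Because the JMJD1C-LKO lists are shorter, each comparison below is given with all summits and, where stated, with the 825 strongest of each liver. The lowest score among these 825 was 10.5 in WT replicate 1, 8.74 in WT replicate 2 and 6.41 in JMJD1C-LKO replicate 1. In JMJD1C-LKO replicate 2, where the 825 are the whole list, it was 1.57. Lists of equal length are thus not cut at an equal score.

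JMJD1C-LKO replicate 2 stood apart from the other 3 livers before any comparison. Within 1000 bp of a transcript start lay 22.7% of its summits (95% Wilson interval 19.9 to 25.6, covering counting error only, as do all intervals given here). The share was 59.7% (57.2 to 62.2) in JMJD1C-LKO replicate 1, 43.5% in WT replicate 1 and 42.5% in WT replicate 2. The difference of the group means was −1.82 percentage points, with 43.0% ± 0.75 (SD, n = 2) in WT and 41.2% ± 26.2 in JMJD1C-LKO (exact two-sided permutation test, p = 1.0, where 2 against 2 cannot give less than 0.333). Without JMJD1C-LKO replicate 2 the difference was 16.7 points in the other direction, and without JMJD1C-LKO replicate 1 it was −20.3 points. With the 825 strongest summits of each liver the shares were 55.4% and 53.9% in WT, 49.7% in JMJD1C-LKO replicate 1 and 22.7% in JMJD1C-LKO replicate 2. At this equal length JMJD1C-LKO replicate 1 was thus below both WT livers, and the difference was −18.5 points (exact permutation test, p = 0.333).

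The livers differed in how much of each list lay in sequence with other copies in the genome. A summit was called single-copy when at most 10% of the 25-base words within 100 bp of it occurred more than once in the assembly, a measure added after seeing the data. Single-copy summits made up 46.9% in WT replicate 1, 44.3% in WT replicate 2, 58.1% in JMJD1C-LKO replicate 1 and 18.5% (16.0 to 21.3) in JMJD1C-LKO replicate 2. In number these were 2357, 1381, 842 and 153. Of the single-copy summits, 81.2%, 82.9%, 89.4% and 85.6% lay at a transcript start in the same order, so that JMJD1C-LKO replicate 2 no longer stood apart on this measure.

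**Figure D1:**
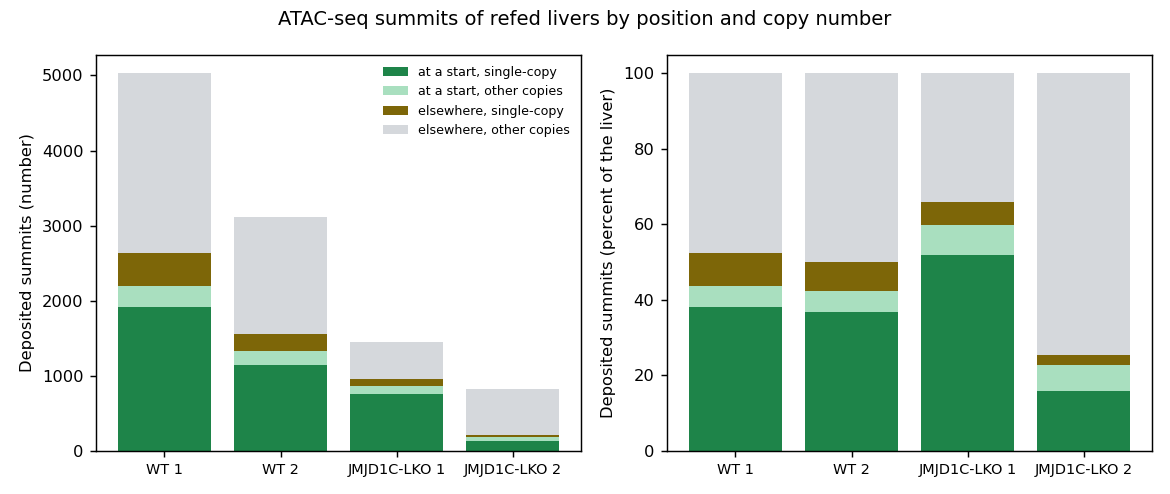
Deposited summits of each refed liver, as numbers on the left and as percent of the liver on the right, split by whether they lie within 1000 bp of a transcript start and whether the sequence around them is single-copy. Most of the 825 summits of JMJD1C-LKO replicate 2 lie away from starts in sequence with other copies, whereas 753 of the 1450 summits of JMJD1C-LKO replicate 1 are single-copy summits at a start.

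Summits within 200 bp of each other were joined into 7224 loci, of which 298 had a summit in all 4 livers and 740 in both WT livers and neither JMJD1C-LKO liver. In both JMJD1C-LKO livers and neither WT liver there were 37. The sequences around these 37 fell into 2 kinds, and 5 of them are shown because they separate single places in the genome from families of copies. In 3 of the 37 every summit was single-copy, among them an upstream site of Alb and the shared promoter of Eif2s1 and Atp6v1d. The bases are the plus strand of GRCm38 around the summit of JMJD1C-LKO replicate 1, and capitals mark bases inside a 25-base word that occurs elsewhere in the assembly.
Alb, upstream, chr5:90450094-90450214: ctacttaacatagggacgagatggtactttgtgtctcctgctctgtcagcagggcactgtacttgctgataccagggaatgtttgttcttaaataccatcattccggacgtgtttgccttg
Eif2s1 and Atp6v1d, chr12:78861894-78862014: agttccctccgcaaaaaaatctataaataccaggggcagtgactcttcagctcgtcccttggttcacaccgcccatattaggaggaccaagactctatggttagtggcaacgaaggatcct
Col6a6, downstream of the start, chr9:105819440-105819560: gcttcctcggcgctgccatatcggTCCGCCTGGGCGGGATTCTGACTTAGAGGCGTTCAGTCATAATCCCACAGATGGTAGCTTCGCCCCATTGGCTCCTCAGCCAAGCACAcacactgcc
Camsap2, upstream, chr1:136364873-136364993: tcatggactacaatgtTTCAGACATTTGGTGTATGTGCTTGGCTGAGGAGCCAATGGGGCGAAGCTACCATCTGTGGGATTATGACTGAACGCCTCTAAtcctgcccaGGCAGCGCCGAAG
Rnu3b4, chr11:87462141-87462261: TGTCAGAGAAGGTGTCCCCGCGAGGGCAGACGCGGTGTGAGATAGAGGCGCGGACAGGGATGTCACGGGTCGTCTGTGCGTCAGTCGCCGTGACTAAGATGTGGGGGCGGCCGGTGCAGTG
The windows at Alb and at Eif2s1 hold no capital, while the one at Rnu3b4, a gene for the U3 small nucleolar RNA, is in capitals throughout. The windows at Col6a6 on chromosome 9 and Camsap2 on chromosome 1 share a run of 66 bases on opposite strands, and the window at Dchs2 on chromosome 3 shares 47 bases with the first.

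Albumin is the main secreted protein of hepatocytes, and its upstream enhancer and promoter are long-known liver elements. At the Alb site 10616 to 10716 bp upstream of the transcript start, JMJD1C-LKO replicate 1 had a summit of rank 732 of 1450 and JMJD1C-LKO replicate 2 one of rank 580 of 825. JMJD1C-LKO replicate 1 also had a summit 104 bp upstream of the Alb start, of rank 808. The nearest summit to the Alb start was 252596 bp away in WT replicate 1 and 512083 bp away in WT replicate 2. The promoter window, on the strand of the gene and with the letters CCAAT of the NF-Y motif in capitals, is shown because it is the only transcript start summit at any of 30 genes for liver secreted proteins.
Alb promoter, chr5:90460706-90460826: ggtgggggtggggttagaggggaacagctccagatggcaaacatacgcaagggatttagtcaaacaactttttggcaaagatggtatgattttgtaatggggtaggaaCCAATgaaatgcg
The fasted WT livers of the series had Alb promoter summits 31 and 222 bp upstream of the start, and fasted replicate 1 also had one 10768 bp upstream. The Cre of the JMJD1C-LKO mice is driven by the albumin promoter, and reads from the transgene and from the gene itself cannot be told apart in these files. Alb RNA was 86053 and 84238 CPM (counts scaled to the same library total) in the WT and 81455 and 71445 CPM in the JMJD1C-LKO libraries (log2 fold change −0.16 ± 0.11 SE, edgeR adjusted p = 0.33).

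The promoter between Eif2s1, which encodes the alpha subunit of the initiation factor eIF2, and Atp6v1d, which encodes a subunit of the vacuolar proton pump, held a summit of rank 618 of 1450 in JMJD1C-LKO replicate 1 and 606 of 825 in replicate 2. Fasted WT replicate 1 had one too. At Alb and at Eif2s1 the summit of JMJD1C-LKO replicate 2 thus ranked in the weaker part of its list.

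The other 34 loci of the 37 exceeded the limit of 10% repeated words, and over the 37 the median share of repeated words was 66.7%. Away from transcript starts lay 29, of which the 2 JMJD1C-LKO summits were within 5 bp of each other at 14. The locus downstream of the start of Col6a6 had rank 282 of 1450 and rank 121 of 825. The loci nearest to Hsfy2 and Esp38 share 25-base words with the annotated 18S ribosomal RNA. The U3 RNA genes Rnu3b1, Rnu3b2, Rnu3b3 and Rnu3b4 lie within one stretch of chromosome 11 and their windows share runs of 106 to 119 bases, so their 4 summits cannot be assigned to single genes. At 21 of the 37 loci a fasted WT liver also had a summit.

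Summit positions differed between the 2 kinds of sequence in the whole comparison. Of the 495 summits of JMJD1C-LKO replicate 1 away from starts in sequence with other copies, 61.0% had a summit of replicate 2 within 200 bp, at a median distance of 8 bp. Of its 866 summits at starts 7.62% did, at a median of 75.5 bp. Between the WT livers the order was the opposite with all summits. Of the summits of WT replicate 1 at starts, 42.2% were found in WT replicate 2, at a median of 38 bp. Of those away from starts in sequence with other copies 20.6% were, at a median of 10 bp. With the 825 strongest summits of each liver the WT order was no longer the opposite. WT replicate 2 then held 51.2% of the start summits of WT replicate 1 and 76.6% of those away from starts, in either kind of sequence. For JMJD1C-LKO replicate 1 in replicate 2 these shares were 10.98% and 71.1%.

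A summit within 1000 bp of a transcript start was found at 2602 of 26180 annotated genes in WT replicate 1 (9.94%), 1633 in WT replicate 2 (6.24%), 1062 in JMJD1C-LKO replicate 1 (4.06%) and 232 in JMJD1C-LKO replicate 2 (0.886%). With the 825 strongest summits of each liver the numbers were 570 (2.18%), 573 (2.19%), 508 (1.94%) and 232 (0.886%). JMJD1C-LKO replicate 1 was thus close to the WT livers at equal list length, and replicate 2 was far below the other 3. These counts of the groups could not be tested beyond the smallest p of 0.333.

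Both WT livers shared a start summit at 1252 genes. Of these 613 had none in either JMJD1C-LKO liver (2.34% of all genes), 516 had one in JMJD1C-LKO replicate 1 and not in replicate 2, 47 in replicate 2 and not in replicate 1, and 76 in all 4 livers. JMJD1C-LKO replicate 1 therefore held 592 of the 1252 genes (47.3%) and JMJD1C-LKO replicate 2 held 9.82%. In the other direction, 9 genes had a start summit in both JMJD1C-LKO livers and neither WT liver (0.0344% of all genes), and 19 in both JMJD1C-LKO livers and 1 WT liver. With the 825 strongest summits, 149 genes were in both WT livers alone, 25 in all 4 and 21 in both JMJD1C-LKO livers alone. With single-copy summits, 1010 genes were in both WT livers and not in both JMJD1C-LKO livers, against 1176 with all summits.

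Whether a WT promoter was found in JMJD1C-LKO replicate 1 followed its rank in the WT liver, while JMJD1C-LKO replicate 2 gave no single order. The 2602 genes of WT replicate 1 were cut into 5 bins by the score rank of their start summit. JMJD1C-LKO replicate 1 held 63.5% (59.2 to 67.5) of the strongest bin and 14.2% (11.5 to 17.5) of the weakest, and JMJD1C-LKO replicate 2 held 52 of 520 genes of the strongest bin and 3.84% of the weakest. WT replicate 2 declined likewise, from 83.3% to 27.1%. From the bins of WT replicate 2, JMJD1C-LKO replicate 1 held 58.6% of the strongest and 21.7% of the weakest. JMJD1C-LKO replicate 2 held 13.2% (9.94 to 17.3) of the strongest and 11.6% (8.58 to 15.5) of the weakest, with 5.21% to 6.42% between them. Read the other way, 82.9% of the start genes of JMJD1C-LKO replicate 1 were in WT replicate 1, 59.1% in WT replicate 2 and 9.79% in JMJD1C-LKO replicate 2. Each of these shares depends on the length of the list it is looked up in.

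**Figure D2:**
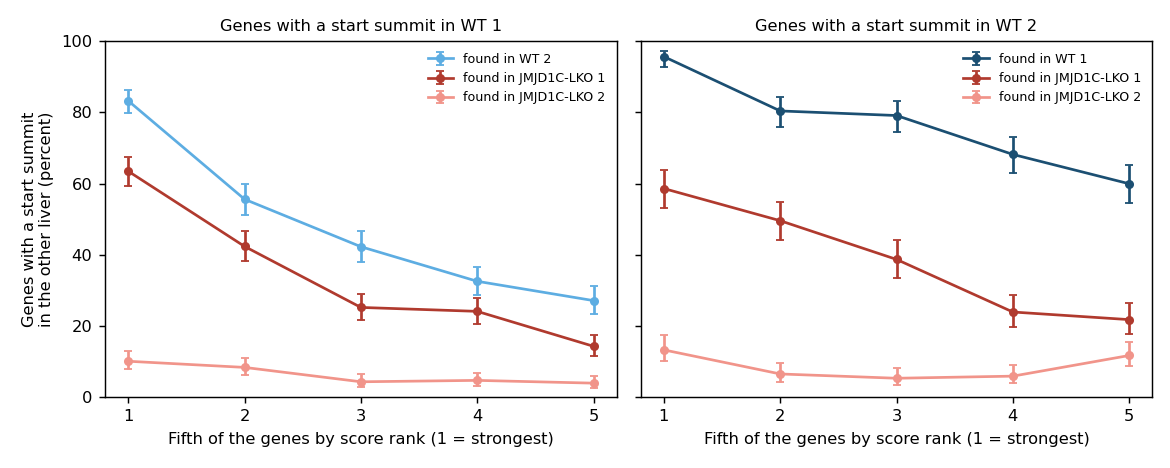
Percent of the genes with a start summit in WT replicate 1 (left) or WT replicate 2 (right) that have one in another refed liver, by bin of the score rank in the first liver, with 95% Wilson intervals. In both panels the other WT liver lies above JMJD1C-LKO replicate 1, and JMJD1C-LKO replicate 2 lies lowest in every bin.

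At equal list length, though not at an equal lowest score, the summits of the JMJD1C-LKO livers overlapped the WT summits less than the WT livers overlapped each other. Of the 825 strongest summits, 62.5% (59.2 to 65.8) of WT replicate 1 lay within 200 bp of a summit of WT replicate 2. For JMJD1C-LKO replicate 1 the share was 53.5% in WT replicate 1 and 46.7% in WT replicate 2, and for JMJD1C-LKO replicate 2 it was 35.0% and 33.6%. The mean over these 4 pairs was 42.2% ± 9.53 (SD over pairs that share livers, so no test was made), and 0.121% after the summits were moved by 10000 bp. The 2 JMJD1C-LKO livers shared 41.2% (37.9 to 44.6) with each other, below the WT pair. Restricted to the 153 strongest single-copy summits of each liver, WT livers shared 42.5%, JMJD1C-LKO replicate 1 shared a mean of 33.0% with them, JMJD1C-LKO replicate 2 shared 14.4%, and the JMJD1C-LKO livers shared 13.7% with each other.

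**Figure D3:**
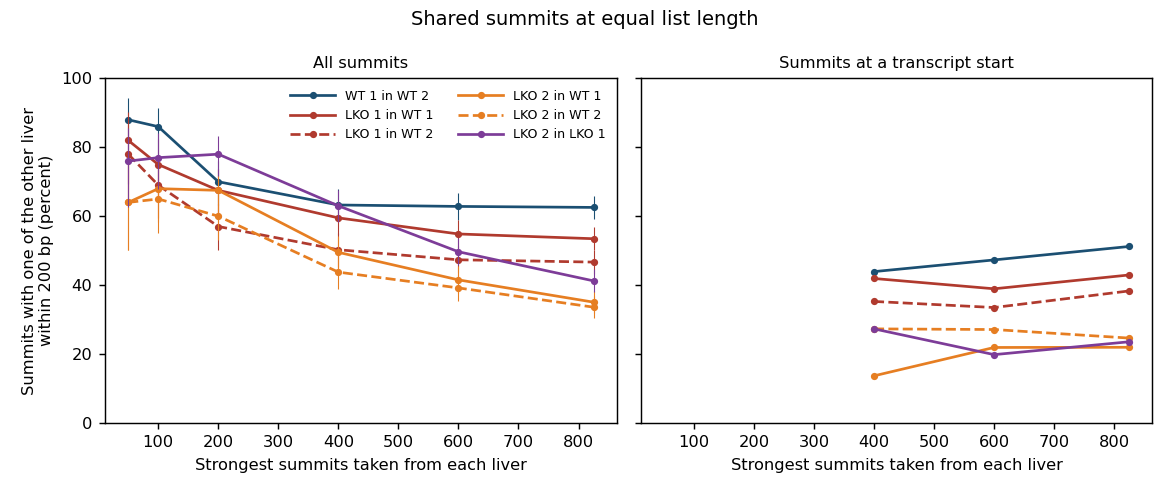
Percent of the strongest summits of one liver that lie within 200 bp of an equally long list from another liver, for all summits with 95% Wilson intervals (left) and for summits at a transcript start (right, from 400 summits on). At the strongest 200 summits JMJD1C-LKO replicate 2 shares 78.0% with replicate 1 against 70.0% between the WT livers, and at 825 the WT pair is highest.

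The genes found in both WT livers and neither JMJD1C-LKO liver with the best ranks were Upf2, a core factor of nonsense-mediated decay, Asf1b, a histone chaperone that shares its promoter with Gm10644, and Nup85, a nuclear pore protein. They were followed by Ipo13, an importin, Uvrag, an autophagy factor, Slc25a28, a mitochondrial iron carrier that shares its promoter with BC037704, 2410002F23Rik and Ccdc103. The Upf2 summit had rank 185 of 5027 in WT replicate 1 and 190 of 3119 in WT replicate 2, 243 and 264 bp upstream of the start. All 10 genes had both summits within the strongest 7.18% of their lists. They were chosen on presence and rank, so their ranks are a description. The Upf2 window, on the strand of the gene, is shown as the best ranked WT promoter without a JMJD1C-LKO summit, and none of the motif letters searched was found in it.
Upf2, chr2:5951166-5951286: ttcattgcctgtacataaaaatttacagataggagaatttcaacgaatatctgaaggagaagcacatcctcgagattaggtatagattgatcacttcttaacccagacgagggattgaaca
Fasted WT replicate 1 had a start summit at all 10 of these genes.

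**Figure D4:**
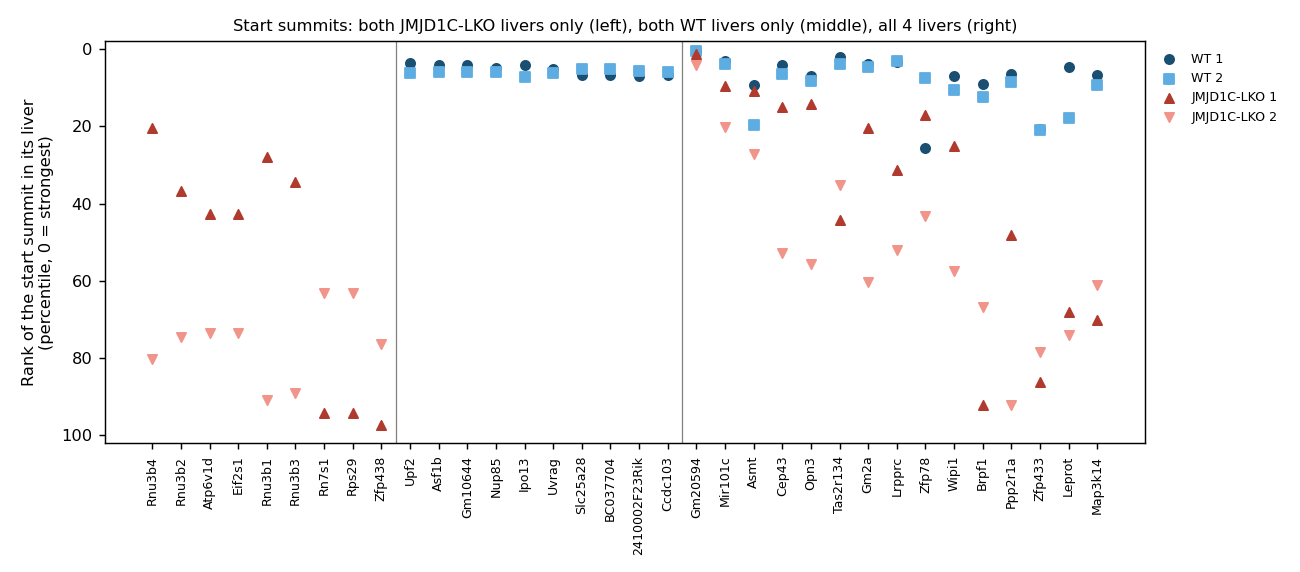
Rank of the start summit within its liver, as percentile with the strongest at the top, for the genes chosen by rule: 9 genes of both JMJD1C-LKO livers alone, 10 of both WT livers alone and 15 of all 4 livers. The 10 genes of both WT livers alone are the best ranked of 613 and lie within 7.18%. The 9 genes of both JMJD1C-LKO livers alone are all there were, and reach 20.4% at best. Because of this choice, and of the unequal list lengths, the 2 sets are not compared.

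In all 4 livers the strongest start summits were at Gm20594 and Mir101c. The Gm20594 summit had ranks 22 and 14 in the WT and 20 and 34 in the JMJD1C-LKO livers, and fell on the same base in 3 of the 4. Among promoters of single-copy sequence were Opn3, an opsin, Gm2a, the GM2 ganglioside activator, Lrpprc, a mitochondrial RNA-binding protein, and Wipi1, an autophagy protein. The Lrpprc summit had ranks 162 of 5027 and 96 of 3119 in the WT livers and 453 of 1450 and 429 of 825 in the JMJD1C-LKO livers. Of the 76 genes, 59 had both JMJD1C-LKO percentiles weaker than both WT percentiles and 0 had both stronger, which the unequal list lengths favour.

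To take list length out, the 298 shared loci were ranked again among themselves. Both JMJD1C-LKO ranks were weaker than both WT ranks at 87 loci (29.2%) and stronger at 61 (20.5%). At transcript starts the numbers were 19 weaker and 5 stronger of 57 loci, and at loci away from starts and outside repeats 23 weaker and 31 stronger of 93. The largest moves toward strength were 132120 bp from Dtnbp1, a neuronal trafficking gene, and near Igf2bp3. Ranks were 260 and 289 in WT against 107 and 59 in JMJD1C-LKO near Dtnbp1, and 239 and 264 against 85 and 35 near Igf2bp3. Neither locus was single-copy in every liver. The largest moves at starts toward weakness were at Tas2r134, a taste receptor, with 95 and 105 against 263 and 212, and at Lrpprc, with 138 and 90 against 235 and 244. The Lrpprc locus was single-copy in every liver, and the Tas2r134 locus was not. As a description over these loci, which share the copies in the genome, Spearman's rho was 0.838 between the WT livers, 0.874 between the JMJD1C-LKO livers and 0.604 to 0.813 between the groups.

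Away from starts, the strongest loci of all 4 livers were near Eea1, 1700019M22Rik and Ccnh, at ranks 1 to 9, and share 25-base words with the mitochondrial genome. Of the 298 loci, 49 were single-copy in every liver, and 42 of these were at starts. The single-copy site 91490 bp downstream of the start of Axin2, a target and inhibitor of Wnt signalling, lay at the rank percentiles 2.45 and 13.0 of the WT lists and 3.17 and 2.91 of the JMJD1C-LKO lists, counted from the strongest. The site 17571 bp upstream of Galnt18, a glycosyltransferase, had ranks 67 and 50 against 91 and 201. Of the 740 loci of both WT livers alone, 493 were single-copy and 77 of these lay away from starts and repeats. They included sites 30761 bp upstream of Cdon, 1462 bp downstream of the start of Sin3a, a corepressor, 7728 bp upstream of the microRNA gene Mirlet7a-1, and 18491 bp upstream of the immediate early gene Fos.

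The fatty acid synthesis genes had start summits at shares near those of all genes. Of 20 fatty acid synthesis genes, 2 had a start summit in WT replicate 1, 1 in WT replicate 2, 1 in JMJD1C-LKO replicate 1 and 0 in JMJD1C-LKO replicate 2, beside 9.94%, 6.24%, 4.06% and 0.886% of all genes. Acly, the ATP citrate lyase that supplies acetyl-CoA, had one in WT replicate 1 alone, 11 bp upstream of the start and of rank 2010 of 5027. Acss2, an acetyl-CoA synthetase, had one in both WT livers, at ranks 3302 and 335, and in JMJD1C-LKO replicate 1, at rank 1320 of 1450. Fasn, Acaca, Scd1, Gpam, Srebf1 and Elovl6 had no start summit in any refed liver, nor had the gluconeogenic genes G6pc, Pck1 and Ppargc1a, the oxidative gene Acot1, Usf1 and Jmjd1c itself. The upstream part of the Acly window, on the strand of the gene, holds the GC box letters GGGCGG, in capitals, and not CACGTG.
Acly, chr11:100528001-100528071: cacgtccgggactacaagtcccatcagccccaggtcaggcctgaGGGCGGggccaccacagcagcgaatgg

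Cholesterol synthesis gave more. Of 25 genes, 11 and 10 had a start summit in the WT livers (44.0% and 40.0%, against 9.94% and 6.24% of all genes), 6 in JMJD1C-LKO replicate 1 (24.0%, against 4.06%) and 0 in JMJD1C-LKO replicate 2. With the 825 strongest summits of each liver the numbers were 3, 2, 2 and 0. In both WT livers were Cyp51, Fdft1, Hmgcs1, Idi1, Msmo1, Mvd and Mvk, enzymes from HMG-CoA synthase to sterol demethylation, and Srebf2, which encodes the factor that regulates them. Of these, Cyp51, Idi1 and Mvk also had a summit in JMJD1C-LKO replicate 1. The Cyp51 summit had ranks 533, 1113 and 552 in the 3 livers, and lay at the same base in both WT livers.

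Of 26 fatty acid oxidation genes, 9 and 8 had a start summit in WT, 2 in JMJD1C-LKO replicate 1 and 0 in JMJD1C-LKO replicate 2, against 3, 3, 2 and 0 with the strongest summits. With all summits the shares were 34.6%, 30.8%, 7.69% and 0%, beside 9.94%, 6.24%, 4.06% and 0.886% of all genes. With the strongest they were 11.5%, 11.5%, 7.69% and 0%, beside 2.18%, 2.19%, 1.94% and 0.886%. In both WT livers were 7 of them, among which were Acadm, Etfa, Etfdh, Hadha, Hadhb and Pdk4, and JMJD1C-LKO replicate 1 kept Acadm and Etfdh. Hadha and Hadhb, the subunits of the mitochondrial trifunctional protein, share a promoter whose summit had ranks 725 and 296 in the WT livers and none in the JMJD1C-LKO livers. Acadm, the medium-chain acyl-CoA dehydrogenase, had ranks 363, 428 and 313. In all, 2 of the 7 oxidation genes and 3 of the 8 cholesterol genes of both WT livers had a summit in a JMJD1C-LKO liver, beside 639 of 1252 (51.0%) for all genes of both WT livers, and the difference was not tested.

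Of 19 circadian clock genes, 8 and 3 had a start summit in WT and 1 and 0 in JMJD1C-LKO, and with the strongest summits the numbers were 2, 2, 1 and 0. With all summits the shares were 42.1%, 15.8%, 5.26% and 0%, against the 9.94%, 6.24%, 4.06% and 0.886% of all genes that apply to every list here. With the strongest summits they were 10.5%, 10.5%, 5.26% and 0%, against 2.18%, 2.19%, 1.94% and 0.886%. Nr1d2, a nuclear receptor of the clock, had a summit in both WT livers and JMJD1C-LKO replicate 1 at ranks 215, 622 and 335, and Arntl, the partner of CLOCK, in the WT livers alone, at 1013 and 742. Of 72 translation factors, 15, 13, 4 and 1 had a start summit in the order used above, and of 119 RNA processing factors 27, 18, 5 and 3. The shares of both lists were above those of all genes in the WT livers, at 15.1% to 22.7%, and close to them in JMJD1C-LKO replicate 1, at 5.56% and 4.20%. With the strongest summits the numbers were 4, 4, 3 and 1 (5.56%, 5.56%, 4.17% and 1.39%), and 9, 3, 5 and 3 (7.56%, 2.52%, 4.20% and 2.52%). Among 398 zinc finger genes of the Zfp series the numbers were 74, 45, 31 and 9. With the strongest summits they were 9, 10, 11 and 9, or 2.26%, 2.51%, 2.76% and 2.26%, beside 2.18%, 2.19%, 1.94% and 0.886% of all genes.

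The enzymes that write or remove H3K9 methylation and the E-box factors were also looked up, and in JMJD1C-LKO replicate 1 both lists had a share of 5.88%, near the 4.06% of all genes. Of 17 H3K9 methylation enzymes, 4 and 2 had a start summit in the WT livers, 1 in JMJD1C-LKO replicate 1 and 0 in JMJD1C-LKO replicate 2. Kdm4a and Kdm4b, demethylases of H3K9, were in both WT livers, and Kdm4a was also in JMJD1C-LKO replicate 1. Kdm3a, the close relative of Jmjd1c, was in WT replicate 1 alone. In the WT livers the share was 23.5% and 11.8% for these enzymes, beside 9.94% and 6.24% of all genes. Of 17 USF and E-box factors the numbers were 7, 2, 1 and 1, or 41.2% and 11.8% in WT. Usf2 was in WT replicate 1 alone, Mnt, a partner of Max, in both WT livers, and Max itself in WT replicate 1 and JMJD1C-LKO replicate 2. Of 24 insulin signalling genes, 6, 3, 2 and 1 had a start summit. The share was largest in WT replicate 1, at 6 of 24 genes. It was 12.5% in WT replicate 2, and 8.33% and 4.17% in JMJD1C-LKO. In each liver this share was above that of all genes, which was 9.94%, 6.24%, 4.06% and 0.886% in the same order. The kinase gene Gsk3b was in 3 livers. Rheb, the activator of mTORC1, was in both WT livers and JMJD1C-LKO replicate 2. Among 21 immediate early genes the numbers were 7, 3, 4 and 0 (33.3%, 14.3%, 19.05% and 0%), and Egr1 was in both WT livers and JMJD1C-LKO replicate 1. With the strongest summits the insulin signalling genes numbered 2, 2, 1 and 1 (8.33%, 8.33%, 4.17% and 4.17%). The immediate early genes then numbered 1, 1, 1 and 0 (4.76%, 4.76%, 4.76% and 0%).

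Genes of triglyceride synthesis and gluconeogenesis numbered 2, 1, 2 and 0 of 19 and 2, 1, 1 and 0 of 12. These are 10.5%, 5.26%, 10.5% and 0%, and 16.7%, 8.33%, 8.33% and 0%, beside 9.94%, 6.24%, 4.06% and 0.886% of all genes. No gene of either list was in both WT livers. With the strongest summits the numbers were 1, 0, 2 and 0 (5.26%, 0%, 10.5% and 0%), and 0, 0, 1 and 0 (8.33% in JMJD1C-LKO replicate 1). Mttp, which loads lipid onto apolipoprotein B, was in WT replicate 1 and JMJD1C-LKO replicate 1, and Dgat2, which makes triglyceride, in WT replicate 2 alone. Of the gene families that every cell uses, 11, 10, 3 and 3 of 84 cytosolic ribosomal protein genes had a start summit, 13, 9, 8 and 1 of 77 mitochondrial ribosomal protein genes, and 5, 8, 2 and 0 of 37 tRNA synthetase genes. Of 39 proteasome genes the numbers were 5, 5, 2 and 1. The shares of these 4 lists were 12.8% to 16.9% in WT replicate 1 and 11.7% to 21.6% in WT replicate 2, above those of all genes, and 3.57% to 10.4% in JMJD1C-LKO replicate 1, on either side of the 4.06% of all genes. With the strongest summits the numbers were 3, 3, 0 and 3 for the first list, 3, 2, 5 and 1 for the second, 2, 2, 0 and 0 for the third and 0, 2, 1 and 1 for the fourth. The shares were then 0% to 5.41% in WT replicate 1, 2.60% to 5.41% in WT replicate 2 and 0% to 6.49% in JMJD1C-LKO replicate 1. Of all genes 2.18%, 2.19% and 1.94% had one in these 3 livers. Of the 47 chromatin genes of the Arid, Jarid, Hdac, Smarca and Set families the numbers were 10, 10, 6 and 1, or 21.3%, 21.3%, 12.8% and 2.13%. With the strongest summits they were 3, 5, 2 and 1, or 6.38%, 10.6%, 4.26% and 2.13%. Of the 8 found in both WT livers, 6 were found in a JMJD1C-LKO liver, beside 639 of 1252 (51.0%) for all genes. The difference was not tested.

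Few of the genes that define cell types had a start summit, where the share over all genes was 9.94% at most, or about 1 gene in a list of this size. None of 12 Kupffer cell and macrophage, 12 endothelial, 12 stellate, 10 cholangiocyte and 11 lymphocyte markers had a start summit in any of the 4 livers. Of 12 hepatocyte markers Alb had one, in JMJD1C-LKO replicate 1, and of 24 hepatocyte transcription factors Cebpb had one, in the same liver at rank 1321 of 1450. The start summits therefore give no check of the labelled tissue or of the cell makeup of the livers.

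The letters under the start summits were searched for motifs of promoter and liver factors. The GC box GGGCGG, on either strand within 100 bp, was found at 59.8% (57.7 to 61.8) and 61.2% (58.6 to 63.8) of the start summits of the WT livers, at 64.2% (61.0 to 67.3) in JMJD1C-LKO replicate 1 and at 44.4% (37.4 to 51.5) in JMJD1C-LKO replicate 2. The share was 38.7% at all annotated starts. The USF E-box CACGTG was found at 5.80% (4.90 to 6.86), 5.74% (4.61 to 7.12), 6.58% (5.11 to 8.43) and 3.74% (1.82 to 7.52), against 5.43% at all starts. The start summits of WT replicate 1 that WT replicate 2 and a JMJD1C-LKO liver shared had the same median GC content as those shared with WT replicate 2 alone, 62.2%, while their median rank percentiles were 15.2 and 29.3. The NF-Y letters CCAAT were found at 34.8% (32.8 to 36.8) and 42.7% (40.1 to 45.4) in WT, 38.1% (34.9 to 41.4) in JMJD1C-LKO replicate 1 and 26.7% (20.9 to 33.5) in JMJD1C-LKO replicate 2, which was close to the 26.8% of all starts. The NRF1 letters GCGCATGCG were found at 1.78% (1.31 to 2.43) and 1.66% (1.10 to 2.501) in WT and at 3.23% (2.25 to 4.63) in JMJD1C-LKO replicate 1, against 1.55% of all starts, and the CRE letters TGACGTCA at 1.74% and 1.96% in WT and 3.002% (2.06 to 4.36) in JMJD1C-LKO replicate 1, against 1.86%. In JMJD1C-LKO replicate 2 these rested on 3 and 2 summits. With the strongest summits NRF1 was at 0.875% and 0.899% in WT and at 2.93% (1.68 to 5.05) in JMJD1C-LKO replicate 1, intervals that overlap those of WT. An element TCGCGAGA was found at 1.69%, 2.94%, 1.85% and 1.60% of the start summits, against 0.937% of all starts. It is shown at Rpp38, a subunit of ribonuclease P, in the window of JMJD1C-LKO replicate 1 on the strand of the gene, with the overlapping matches on both strands in capitals.
Rpp38, chr2:3332928-3333048: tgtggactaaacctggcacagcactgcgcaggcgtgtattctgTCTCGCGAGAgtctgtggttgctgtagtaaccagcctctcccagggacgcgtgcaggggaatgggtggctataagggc
JMJD1C-LKO replicate 1 had this summit 360 bp upstream at rank 718, replicate 2 one 249 bp upstream at rank 719 of 825, and WT replicate 1 one 28 bp upstream at rank 1408.

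H3K9me2, a substrate of JMJD1C, was mapped in the series by ChIP-seq in WT livers only, fasted and refed, so it could not be compared between genotypes. The 2 refed ChIP-seq replicates differed widely, with a summit at the start of 61 genes in replicate 1 and of 9194 genes (35.1%) in replicate 2. In replicate 2 it was present at 83.5% of the 613 genes with a start summit in both WT livers alone, at 90.5% of the 516 also found in JMJD1C-LKO replicate 1, and at 75.0% of the 76 found in all 4. In replicate 1 these counts were 2 genes in each class. In the fasted WT livers, 72.8% and 52.2% of the 613 genes had a start summit by ATAC-seq, 89.0% and 72.7% of the 516, and 92.1% and 85.5% of the 76, beside 12.02% and 5.49% of all genes. The genes found in more of the refed livers were thus also found more often in the fasted livers.

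RNA-seq of refed livers, made from pooled RNA with 2 libraries per genotype, was set beside the summit classes. Jmjd1c itself had 22.0 and 22.8 CPM in the WT libraries and 20.04 and 20.48 CPM in those labelled JMJD1C-LKO (log2 fold change −0.14 ± 0.084 SE, edgeR quasi-likelihood test, adjusted p = 0.23). The deleted exons are not given in the sources used here and the counts are over the whole gene, so this does not check the label. The study itself reports lower Jmjd1c mRNA by RT-qPCR and no detectable protein in JMJD1C-LKO livers. Its decrease in mRNA is much larger than the difference between these RNA-seq libraries, and the reason was not tested. Of 14151 genes tested, 1892 were lower in the libraries labelled JMJD1C-LKO (13.4%) and 2066 higher (14.6%).

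Of the 613 genes with start summits in both WT livers alone, 552 were tested, and 87 were lower (15.8%) and 59 higher (10.7%). Of the 516 also found in JMJD1C-LKO replicate 1, 466 were tested, with 70 lower (15.02%) and 38 higher (8.15%). The 2 classes thus had like shares of lower genes and medians of −0.07 on the log2 scale, although a summit was deposited for a JMJD1C-LKO liver in the second and not in the first. Of the 76 genes in all 4 livers 61 were tested, and 14 were lower (23.0%) and 7 higher (11.5%). Genes with no start summit in any of the 4 livers had 1390 lower (12.6%) and 1755 higher (15.9%) of 11013. This was the only class of these 4 with more higher than lower genes.

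**Figure D5:**
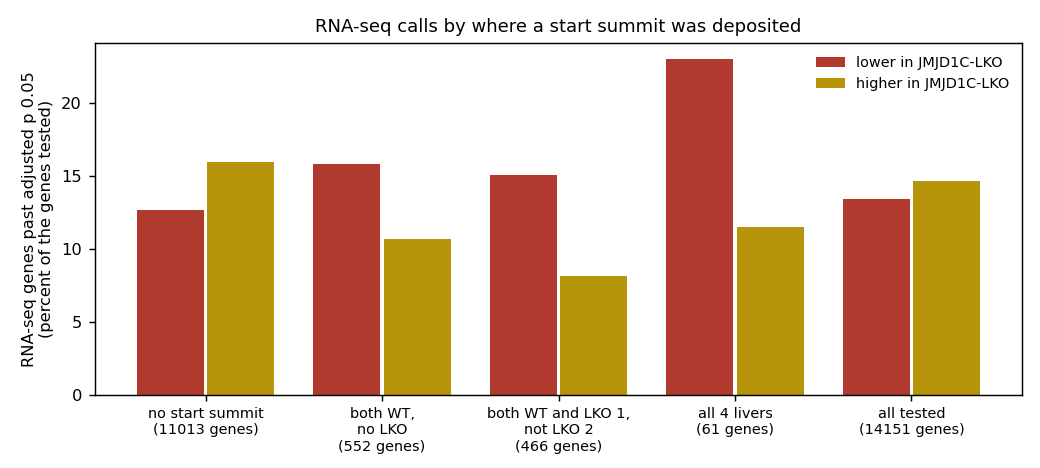
Percent of RNA-seq genes lower or higher in the libraries labelled JMJD1C-LKO at an adjusted p of 0.05 (edgeR), by the refed livers in which a start summit was deposited. Genes of both WT livers alone had 15.8% lower and genes also found in JMJD1C-LKO replicate 1 had 15.02%, beside 13.4% of all genes tested.

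Among the 87 lower genes the smallest p-values were those of Manf, Tubb4b and Hspa5. Hspa5, the main chaperone of the endoplasmic reticulum, had 1308 and 1413 CPM in WT and 820 and 673 CPM in the libraries labelled JMJD1C-LKO, which do not overlap. Its start summits had ranks 1719 of 5027 and 2637 of 3119. Manf, a secreted factor of the same stress response, fell by 0.90 on the log2 scale (SE 0.10, edgeR adjusted p = 3.6e-04). The ribosome biogenesis genes Bysl and Ncl also fell, and in the class kept by JMJD1C-LKO replicate 1 so did Mphosph10, Riok2 and Heatr1, which act in the same process.

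Among the 59 higher genes were Noct, a circadian NADPH phosphatase, Mknk2, a kinase of eIF4E, and Pdk4, the kinase that shuts off pyruvate dehydrogenase in fasting. Noct had 24.0 and 23.0 CPM in WT and 59.9 and 78.3 CPM in the libraries labelled JMJD1C-LKO. Pdk4 had 1.003 and 1.169 CPM against 5.18 and 12.6 CPM (log2 fold change 3.03 ± 0.39 SE, edgeR adjusted p = 6.9e-04). These promoters had a summit in both WT livers and none in a JMJD1C-LKO liver, while their RNA was higher in the libraries labelled JMJD1C-LKO. Of the genes named above for their start summits, 2410002F23Rik, Upf2, Ipo13, Gm20594, Lrpprc, Atp6v1d and Rpp38 were among those lower in RNA, and Gm2a, Opn3 and Wipi1 among those higher.

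Of the lipid synthesis genes without a start summit, Scd1, the stearoyl-CoA desaturase, had 369 and 354 CPM in WT and 1315 and 1571 CPM in the libraries labelled JMJD1C-LKO (log2 fold change 1.997 ± 0.10 SE, edgeR adjusted p = 1.0e-05). Fasn, the fatty acid synthase, had 158 and 198 CPM against 169 and 121 CPM, which overlap (log2 fold change −0.29 ± 0.15 SE, edgeR adjusted p = 0.18). Acly, with its summit in 1 WT liver, had 76.8 and 89.1 CPM against 94.2 and 71.9 CPM, which overlap too. Of the 20 fatty acid synthesis genes, 7 were lower and 5 higher, with a median log2 fold change of −0.03. Of all genes tested 13.4% were lower and 14.6% higher.

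Markers of other cells moved in the same libraries. All 12 Kupffer cell and macrophage markers were higher, with a median log2 fold change of 1.28 and a summed level of 364 and 381 CPM in WT against 716 and 1023 CPM, and none was at 0 in every library. Of 11 lymphocyte markers 5 were higher, of 12 endothelial markers 6, of 12 stellate markers 3 and of 12 hepatocyte markers 5, while of 8 cholangiocyte markers 1 was lower. The shares over all genes tested were 14.6% higher and 13.4% lower. Their part in the RNA results was not tested, and in whole liver a change in the number of cells of a type and a change in RNA per cell cannot be told apart. The RNA counts moved with single WT libraries. Without WT replicate 1 there were 476 lower and 789 higher genes and without WT replicate 2 there were 408 and 660. Of the 554 genes of both WT livers alone then tested, 20 were lower (3.61%) in either case, beside 3.28% and 2.81% of all genes in the same fits. In the class of all 4 livers 1 of 63 and 2 of 62 genes were then lower, against 14 of 61 with every library.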

How the data were processed

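ATAC-seq of 2 WT and 2 JMJD1C-LKO refed mouse livers was analysed from peak summits, with RNA-seq, H3K9me2 ChIP-seq and fasted ATAC-seq samples beside them. For ATAC-seq the authors mapped reads to mm10 with BWA-backtrack and ran MACS2 (2.1.1 in the submitters' processing notes) on every liver, keeping peaks below q = 0.05 and above a minimum fold enrichment. The authors deposited the summits with the −log10 of q as their score. The RNA-seq table deposited by the authors holds unscaled estimated counts of RefSeq transcripts. HISAT2 is named in the submitters' processing notes without a role. A table of the authors' own RNA-seq comparison, with p-values and fold changes, was not used.

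Summits were placed against RefSeq transcript starts of GRCm38.p6, the assembly of mm10, in a window of 1000 bp on either side, and were shared within 200 bp. Scores were compared only by rank within a liver. A summit lay in a repeat when over 50% of the bases within 100 bp were masked. Motifs were exact letters on both strands. Estimated counts were summed per gene, rounded, and tested with edgeR 4.0.16 (R 4.3.3, TMM, filterByExpr, quasi-likelihood test, Benjamini-Hochberg adjustment, threshold 0.05), with DESeq2 1.42.0 as an alternative. The 4 libraries held 51265155 to 54400531 counts. The edgeR step was tested on simulated data. Sequences were read from GRCm38 (RefSeq) with pysam 0.24.0, and intervals and permutation tests used scipy 1.17.1.

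Genes named are those with start summits in one group alone (at most 10, by best mean rank percentile), the 10 strongest and those with the largest rank shifts among genes of all 4 livers, members of the lists found in both livers of a group, the genes the study names for its genome-wide panels and Alb, the best ranked shared loci away from starts, and the smallest RNA p-values. Rpp38, Hspa5 and other genes of the RNA classes, and single-copy loci, were named after their values were seen. The members and lists were chosen with earlier results of these data known. A list of replication-dependent histone genes matched 0 annotated symbols and was not used. Results for a few genes are not reported here.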

Additional observations from a re-analysis of the deposited data

How the results depend on the processing

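Across the alternatives 47 values kept their direction and, for counts, stayed within 1.5 times, 25 moved further and 2 reversed. The gene counts followed the length of the summit lists. Genes in both WT livers and not in both JMJD1C-LKO livers were 1176, and 275 with the 825 strongest summits or 1986 when 1 liver of a group was enough. Genes in both livers of both groups were 76, and 25, 997 or, with scores of at least 5, 21. Genes in both JMJD1C-LKO livers and not in both WT livers were 28, and 13 with scores of at least 5, 193 when 1 liver was enough and 10 with single-copy summits, an alternative chosen after seeing the data. Leaving out each liver in turn gave 660 to 2507, 76 to 592 and 9 to 470 genes for these counts. The lowest first count and the highest of the other counts came without JMJD1C-LKO replicate 2, and the highest first and lowest last count without WT replicate 2. Without JMJD1C-LKO replicate 1 the last count was 109 and the second was 9.82% of the 1252 genes of both WT livers, over 1.5 times the 76. The mean share of JMJD1C-LKO summits found in WT livers, 42.2%, was 56.2% with all summits and 23.7% with single-copy summits, and 34.3% to 50.1% with a liver left out. The difference in the share at transcript starts, −1.82 points, kept its sign but was −18.5 with the 825 strongest summits, −23.9 with scores of at least 5 and −16.0 with repeats left out. It was 5.47 with single-copy summits (exact permutation p = 0.333) and ranged from −20.3 to 16.7 with a liver left out. The cause of these moves was not tested.

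The RNA-seq counts, 1892 lower and 2066 higher, were 558 and 1308 with a fold change of at least 1.5, 1572 and 1720 with DESeq2, and 408 to 2590 and 660 to 2590 with a library left out. The lowest values came without WT replicate 2, and without WT replicate 1 they were 476 and 789. A lone sample left in a group is assumed to vary like the other group.

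Replicate numbers are shared by the labels, but nothing in the labels ties same-numbered mice, and the samples were treated as unpaired. The correlation of the deviations of same-numbered RNA libraries from their group means was −0.005. It covers the pooled RNA libraries only, and cannot show whether same-numbered livers shared a litter or a batch. With the replicate number as a block, edgeR gave 1996 lower and 2211 higher genes. Requiring the pattern in both pairs of same-numbered livers gave 613, 76 and 9 genes for the summit counts in the order above. The depth of the summit lists is unknown.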
